A study of Mus musculus with 116 samples.

Results

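The Fgf and Erk feedback genes described here are 9 mouse genes chosen by symbol: the ligand gene Fgf4, the receptor genes Fgfr1 and Fgfr2, the adaptor gene Grb2, and the feedback and response genes Spry2, Spry4, Dusp6, Etv4 and Etv5. They were 9 of the 24028 gene symbols present in all 4 deposited expression tables, and each had 1 row in every table. The series studied RNA polymerase II in oocytes and preimplantation embryos; 7 of its RNA libraries were used here, and its other 109 samples were not analysed here. All animals were wild type, and the embryos came from C57BL/6N females crossed with PWK males. The females were 8 weeks old and had been given PMSG and hCG, hormones that induce ovulation.

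The groups were MII oocytes (mature eggs, 13 h after hCG), PN5 zygotes (the late pronuclear stage, 30 h), early 2-cell embryos (36 h), late 2-cell embryos after DRB, late 2-cell control embryos, and blastocyst inner cell mass, abbreviated ICM (98 h). For the late 2-cell groups, zygotes collected at 23 h were held for 14 h in KSOM medium with 60 uM DRB, an inhibitor of transcription elongation, or with 0.1% DMSO as control. They were released on entering the 2-cell stage and cultured for 12 h more. The DRB library is labelled mTBE, an abbreviation that is not expanded in the labels; it is called DRB here because its column in the deposited table bears that name. Each of the 5 groups up to the late 2-cell stage had 1 library of total RNA, depleted of ribosomal RNA and pooled from about 100 oocytes or embryos. The ICM had 2 libraries made with Smart-seq2, which captures polyadenylated RNA. No difference between stages or treatments therefore has a replicate check, and no p-value was calculated. Protocol and stage cannot be told apart in any comparison that involves the ICM.

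Fgf4 is a secreted growth factor that binds Fgf receptors together with heparan sulphate. Activated receptors recruit the adaptor Grb2, which brings in the Ras activator Sos and so starts the Raf, Mek and Erk kinase cascade. Erk activity in turn switches on genes that limit it: Sprouty proteins act between the receptor and Raf, Dusp6 removes phosphate from Erk in the cytoplasm, and the ETS factors Etv4 and Etv5 are target genes of the pathway. In the mouse blastocyst, Fgf4 from epiblast cells acts through Fgfr1 and Fgfr2 to direct neighbouring ICM cells to primitive endoderm. Cic is a repressor that holds such target genes off through octamer sites until Erk signalling relieves it.

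RNA of 4 of the 9 genes, Fgf4, Spry2, Dusp6 and Etv5, was higher in late 2-cell control embryos than in both PN5 zygotes and early 2-cell embryos. Grb2 was higher than in early 2-cell embryos but not than in PN5 zygotes. By the same limit, about 2-fold, 30.5% of all measured genes were higher than in PN5 zygotes. Against early 2-cell embryos the share was 49.6%, and the share higher in both comparisons was not calculated. The promoter windows of the 4 genes are shown here because they passed the limit in both of these comparisons. The windows are RefSeq sequences of build GRCm38.p6, 5′ to 3′ on the strand of the gene, from 250 bases before the annotated start to 50 after it. Capitals mark matches to the Cic octamers searched (TGAATGAA, TGAATGGA, TCAATGAA and TCAATGGA, on both strands). The Dusp6 window is chr10:99262981-99263280 (+ strand), the Spry2 window chr14:105896770-105897069 (- strand), the Fgf4 window chr7:144861136-144861435 (+ strand) and the Etv5 window chr16:22439521-22439820 (- strand).
Dusp6: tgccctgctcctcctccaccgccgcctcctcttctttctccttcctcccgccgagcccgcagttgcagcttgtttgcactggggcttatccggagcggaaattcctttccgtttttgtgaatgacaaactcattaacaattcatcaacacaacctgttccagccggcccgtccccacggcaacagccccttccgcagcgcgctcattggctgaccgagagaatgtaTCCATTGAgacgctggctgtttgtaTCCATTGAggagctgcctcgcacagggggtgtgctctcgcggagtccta
Spry2: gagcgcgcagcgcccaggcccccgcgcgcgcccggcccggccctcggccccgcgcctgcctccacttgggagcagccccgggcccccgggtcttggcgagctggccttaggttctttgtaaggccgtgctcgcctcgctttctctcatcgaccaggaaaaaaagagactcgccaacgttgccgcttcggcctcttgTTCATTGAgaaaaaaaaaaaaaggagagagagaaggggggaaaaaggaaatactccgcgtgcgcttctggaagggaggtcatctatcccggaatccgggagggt
Fgf4: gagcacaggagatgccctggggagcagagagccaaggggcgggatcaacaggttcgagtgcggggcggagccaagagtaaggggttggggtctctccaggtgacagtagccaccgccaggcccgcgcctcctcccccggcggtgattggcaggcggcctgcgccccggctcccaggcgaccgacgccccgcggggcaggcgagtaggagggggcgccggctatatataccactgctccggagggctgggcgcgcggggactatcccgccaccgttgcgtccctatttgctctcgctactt
Etv5: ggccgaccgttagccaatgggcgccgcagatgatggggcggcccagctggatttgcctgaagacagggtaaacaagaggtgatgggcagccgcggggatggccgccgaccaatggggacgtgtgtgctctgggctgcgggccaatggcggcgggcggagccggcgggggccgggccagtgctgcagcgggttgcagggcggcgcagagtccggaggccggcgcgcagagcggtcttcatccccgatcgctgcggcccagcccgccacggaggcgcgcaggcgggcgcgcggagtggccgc

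Dusp6 held 2 matches to TCAATGGA on the opposite strand, where they read TCCATTGA; 1 began 24 bases before the start and 1 at base 2 after it. Spry2 held 1 match to TCAATGAA on the opposite strand, read as TTCATTGA and beginning 54 bases before the start. The windows of Fgf4 and Etv5, including a second Etv5 window, held none, and 1 of 2 Grb2 windows held TGAATGGA beginning 18 bases before the start. The single Fgfr2 window had no match either. Over 32851 RefSeq promoters of the same length, 3.84% held at least 1 of the 4 octamers. The ETS octamer CCGGAAGT was in none of these 8 windows of 6 member genes and in 3.89% of all promoters. No octamer match overlapped another in the member windows. A match describes the letters in a window and not a bound site. Fgfr1, Etv4 and Spry4 are named without a window.

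The deposited values are FPKM, which correct fragment counts for the length of the transcript and the size of the library. Summed over the shared genes they came to between 212707 (early 2-cell) and 474686 (ICM replicate 2). Between 9396 and 13022 genes were at 1 FPKM or more, and 27.9% to 38% of genes were listed at 0. The depth of the total RNA libraries is unknown, so no interval can be given for a low value. The PN5, DRB and control columns stand in 1 table, the ICM pair in another, and MII and early 2-cell in 1 each; tables were normalized separately. Differences are given as log2(FPKM + 1) of one library minus the other, a scale on which the folds of low genes are compressed. A gene counted as measured if any library compared had 1 FPKM or more, and was called higher or lower once the difference reached 1, about 2-fold. Between the ICM replicates, 0 of 8 measured members differed by that much, against a background of 2.79% of 9983 measured genes higher and 2.31% lower in replicate 1 than in replicate 2; of the genes called, 54.7% were higher, 36.3% with the median ratio set to 0 and 65.6% after rescaling to equal sums. That pair is the only replicate spread available, and it belongs to the Smart-seq2 protocol.

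The labels were set against marker lists. All 6 oocyte markers were at 1 FPKM or more in the 5 total RNA libraries, with sums of 493 to 2787 FPKM, against 10.9 and 31.6 in the ICM libraries. The 8 markers of the 2-cell stage summed to 185 FPKM in DRB and 352 in control embryos, and to at most 26.9 elsewhere. The 6 epiblast markers summed to 515 and 378 FPKM in the libraries labelled ICM, against 280 in DRB and 244 in control embryos; against control embryos 2 were called higher (Nanog and Tdgf1) and 1 lower (Sox2). The 6 primitive endoderm markers summed to 154 and 168 FPKM, against 94.8 in DRB and 83.0 in control embryos; of 5 measured, 2 were called higher (Gata6 and Dab2) and 1 lower (Gata4). Nanog stood at 105 and 133 FPKM in the ICM, Gata6 at 24.5 and 32.1, Sox2 at 5.25 and 2.85, and Gata4 at 2.51 and 0.581. The ICM libraries also held trophectoderm markers, which belong to the outer blastocyst layer: all 7 were at 1 FPKM or more, with sums of 1795 and 1522 FPKM against 42.6 in DRB and 36.1 in control embryos. Among these were Krt18 at 1116 and 991 FPKM, Krt8 at 437 and 335, Gata3 at 145 and 127, and Cdx2 at 31.4 and 22.1. The label ICM is kept below as a name, and the part of trophectoderm RNA in its values was not tested. Cumulus and granulosa markers summed to 19.5 FPKM in DRB, 11.1 in control and at most 13.1 FPKM in the other libraries. Of that list, Cyp19a1 reached 12.2 FPKM in PN5 zygotes, Foxl2 held 7.20 FPKM in DRB and 1.04 in control embryos, and Tnfaip6 held 4.785 in DRB and 5.605 in control embryos. Has2 held 1.18 FPKM in DRB and 1.15 in control embryos, and Amh held 1.10 in DRB embryos. The other listed genes, Inha, Inhba, Ptx3 and Fshr, were below 1 FPKM in all 7 libraries. The source of the RNA of these markers was not tested.

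Fgf4 was nearly undetected up to the early 2-cell stage and lay between 4.94 and 9.91 FPKM from the late 2-cell stage on. It was listed at 0 in MII oocytes, at 0.128 FPKM in PN5 zygotes and at 0 in early 2-cell embryos. Late 2-cell embryos held 9.15 FPKM after DRB and 9.91 in the control, and the ICM libraries 9.23 and 4.94 FPKM. Every library from the late 2-cell stage on was thus above every earlier one. The share of all genes with such a separation was not calculated, here or for the genes below. The difference was 3.27 for control embryos minus PN5 zygotes and 3.17 for DRB embryos minus the same zygotes. The ICM mean of 7.08 ± 3.03 FPKM (SD, n = 2) gave a difference of -0.49 from control embryos on the log2(FPKM + 1) scale, smaller than the 0.78 between the ICM replicates.

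Other Fgf ligands ran in different directions. Fgf8, a ligand best known from gastrulation and brain patterning, was the most abundant ligand of the egg: 71.1 FPKM in MII, 25.4 in PN5, 23.9 in early 2-cell, 8.99 in DRB and 7.57 in control late 2-cell embryos, and listed at 0 in both ICM libraries. Fgf9, a ligand with a preference for Fgfr3 and some Fgfr2 forms, stood at 4.22 FPKM in MII, 8.16 in PN5, 2.53 in early 2-cell, 14.9 in DRB and 9.07 in control embryos, and at 0 and 0.0314 in the ICM pair. Fgf10, a ligand of Fgfr2, was highest in the ICM at 13.3 and 10.0 FPKM, against 4.26 in DRB and 2.55 in control embryos. The list held 22 Fgf family genes, with Fgf11 to Fgf14 among them, so its counts are not counts of ligands alone. Fgf4 and Fgf10 were the only ones of the 22 at 1 FPKM or more in the ICM libraries. Of the 22, 12 were at that level in DRB embryos and 10 in control embryos, against 5 in MII, 5 in PN5 and 3 in early 2-cell embryos. The count over all genes moved in the same direction. It was 13022 in DRB and 12472 in control embryos, against 10130 in MII, 9997 in PN5 and 9511 in early 2-cell embryos. The ICM libraries had 9638 and 9396. Fgf3, closely linked to Fgf4 in the genome, was listed at 0 up to the early 2-cell stage and held 2.82 FPKM in DRB and 3.08 in control embryos. Fgf2 was listed at 0 in all 7 libraries.

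**Figure D1:**
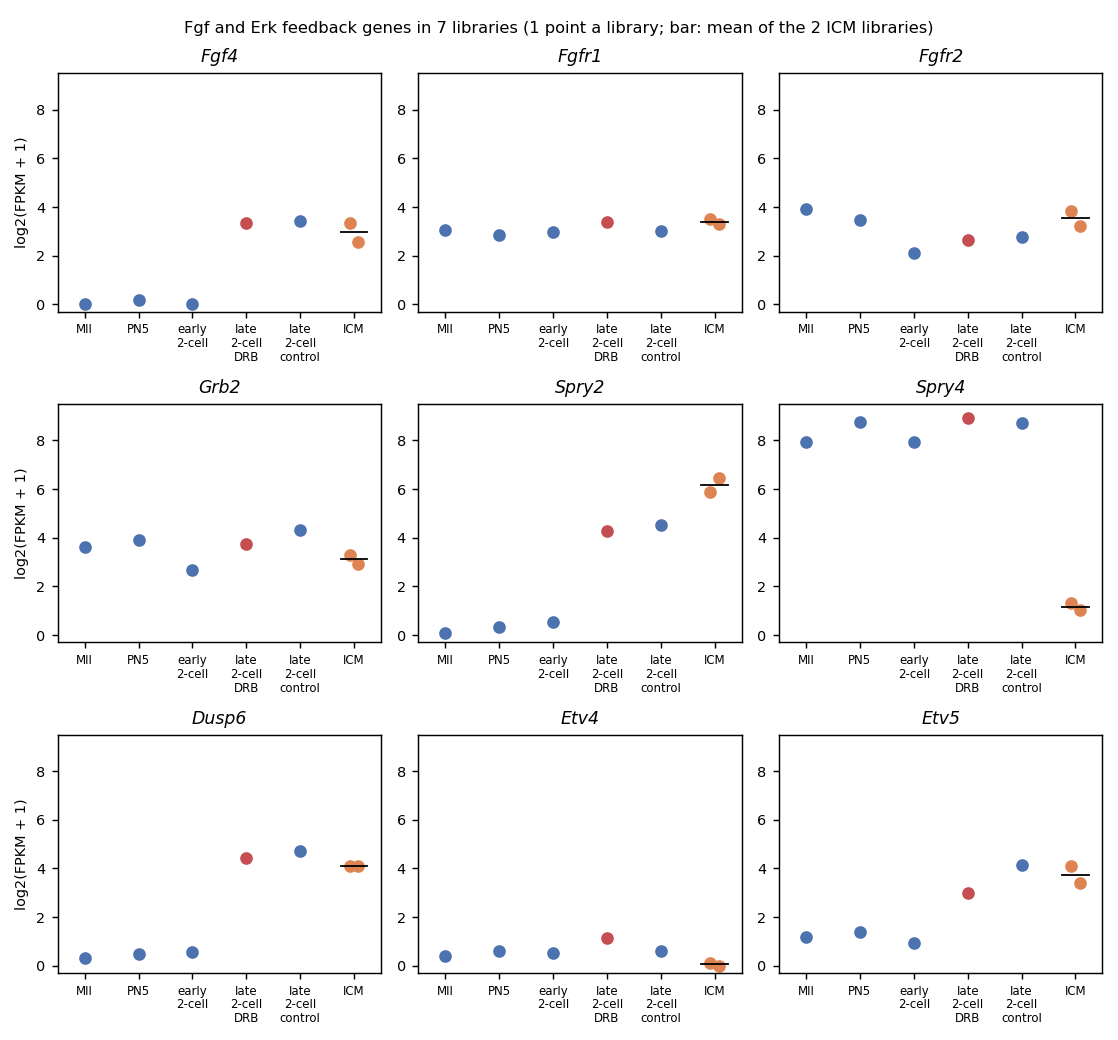
Levels of the 9 genes as log2(FPKM + 1), 1 point for each library from MII oocytes to ICM, with a bar at the mean of the 2 ICM libraries (orange; DRB embryos in red, others in blue). Fgf4, Spry2, Dusp6 and Etv5 step up at the late 2-cell stage, Spry4 is at 1.47 and 1.04 FPKM in the ICM against 423 in control embryos, and Fgfr1 stays between 6.32 and 10.3 FPKM.

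Both receptor genes were present as egg RNA. Fgfr1 varied least of the members: 7.29 FPKM in MII, 6.32 in PN5, 6.81 in early 2-cell, 9.46 in DRB and 7.18 in control late 2-cell embryos, and 10.3 and 8.97 in the ICM. It was within the 2-fold limit in each of the 9 comparisons. In RefSeq, Fgfr1 overlaps 2 long noncoding RNA genes, Gm31288 and Gm16159, and whether the authors' counting used strand is not given in the sources used here. Reads of these genes could therefore enter its value.

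At the early 2-cell stage Fgfr2 was lower than in the egg, and its ICM values lay near the egg level again. It held 14.0 FPKM in MII, 10.1 in PN5, 3.39 in early 2-cell, 5.30 in DRB and 5.77 in control embryos, and 13.3 and 8.41 in the ICM. On the log2(FPKM + 1) scale the early 2-cell value gave -1.77 against MII and -1.33 against PN5. Control embryos minus PN5 zygotes, which share a table, gave -0.71, within the 2-fold limit. The ICM mean of 10.9 ± 3.46 FPKM (SD, n = 2) was 0.78 above control embryos; with replicate 1 alone the difference was 1.08 and passed the limit.

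Fgfr3 and Fgfr4 were at or under 0.219 FPKM up to the early 2-cell stage. Fgfr3 then held 4.48 FPKM in DRB and 4.29 in control embryos and was back at 0.311 and 0.132 in the ICM. Fgfr4 held 0.644 FPKM in DRB embryos against 2.95 in control embryos, and 4.04 and 3.90 in the ICM. Fgfrl1, a receptor-like protein without a kinase domain, held 2.46 FPKM in DRB and 6.90 in control embryos. Among the 7 receptor and co-receptor genes, Fgfr4 and Fgfrl1 were the 2 called lower after DRB (-1.26 and -1.19), and 0 were called higher, against 9.99% of all measured genes lower and 5.57% higher.

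Grb2 RNA was present throughout. Its levels were 11.2 FPKM in MII, 14.1 in PN5, 5.32 in early 2-cell, 12.5 in DRB and 18.9 in control late 2-cell embryos, and 8.82 and 6.62 in the ICM. Differences in log2(FPKM + 1) were -1.26 for early 2-cell embryos minus PN5 zygotes and 1.66 for control late 2-cell minus early 2-cell embryos. The ICM mean of 7.72 ± 1.56 FPKM (SD, n = 2) gave -1.20 against control embryos. DRB minus control gave -0.56, larger than its 0.37 between the ICM replicates and within the 2-fold limit.

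Genes of the kinase cascade below Grb2 differed in both directions between the ICM and the late 2-cell stage. Araf, a kinase of the Raf step, held 51.5 and 40.0 FPKM in the ICM against 7.89 in DRB and 10.5 in control embryos. The Mek genes parted: Map2k1 was at 37.6 and 25.4 FPKM in the ICM against 205 in DRB and 131 in control embryos, and Map2k2 at 44.9 and 43.7 against 5.41 in DRB and 20.4 in control embryos. Both are kinases that activate Erk. The Erk gene Mapk3 held 3.09 and 3.35 FPKM in the ICM against 51.6 in DRB and 57.2 in control embryos. The full list of adaptor and cascade genes held 19 genes, Grb2 and other adaptors included, all measured. Of these, 2 were called higher and 12 lower in the ICM than in control embryos. The median difference was -1.20, against -0.85 for all genes. In that comparison 24.7% of all measured genes were called higher and 47.3% lower.

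Among the feedback inhibitors, Spry4 was abundant from the egg to the late 2-cell stage and low in the ICM. It held 242 FPKM in MII, 437 in PN5, 243 in early 2-cell, 489 in DRB and 423 in control late 2-cell embryos. The ICM libraries held 1.47 and 1.04 FPKM. By rank it was among the 115 most abundant of 24028 genes in each total RNA library and at place 9051 and 9319 in the ICM. The ICM mean of 1.25 ± 0.30 FPKM (SD, n = 2) gave a difference of -7.56 from control embryos on the log2(FPKM + 1) scale, while the ICM replicates differed by 0.27. Oocyte markers moved the same way, with sums of 10.9 and 31.6 FPKM in the ICM against 1157 in control embryos, and their part in the Spry4 value was not tested. In bulk samples fewer cells of a type and less RNA per cell cannot be told apart.

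Spry2 did the reverse. Its levels were 0.0470 FPKM in MII, 0.248 in PN5 and 0.453 in early 2-cell embryos. They were 18.4 FPKM in DRB and 22.2 in control late 2-cell embryos, and 58.1 and 86.0 in the ICM. Each stage from the late 2-cell on lay above all earlier ones, and both ICM libraries lay above both late 2-cell libraries. The share of all genes with this order was not calculated. Control embryos were 4.21 above PN5 zygotes and 4.00 above early 2-cell embryos, and the ICM mean of 72.0 ± 19.7 FPKM (SD, n = 2) was 1.63 above control embryos, against -0.56 for ICM replicate 1 minus replicate 2.

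Within the Sprouty family, Spry4 made up 91.9% to 96.7% of the summed FPKM in the 5 total RNA libraries, and 2.24% and 1.15% in the ICM. Spry2 made up 3.57% in DRB and 4.88% in control embryos, at most 0.177% at earlier stages, and 88.9% and 95.2% in the ICM. Spry1 declined more gradually, with 21.3 FPKM in MII, 14.5 in PN5, 11.8 in early 2-cell, 8.05 in DRB, 8.15 in control embryos, and 5.72 and 3.19 in the ICM. Spry3 was listed at 0 in the total RNA libraries and was under 0.1 FPKM in the ICM. The family sum was 516 FPKM in DRB and 454 in control embryos, and 65.4 and 90.3 in the ICM.

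**Figure D2:**
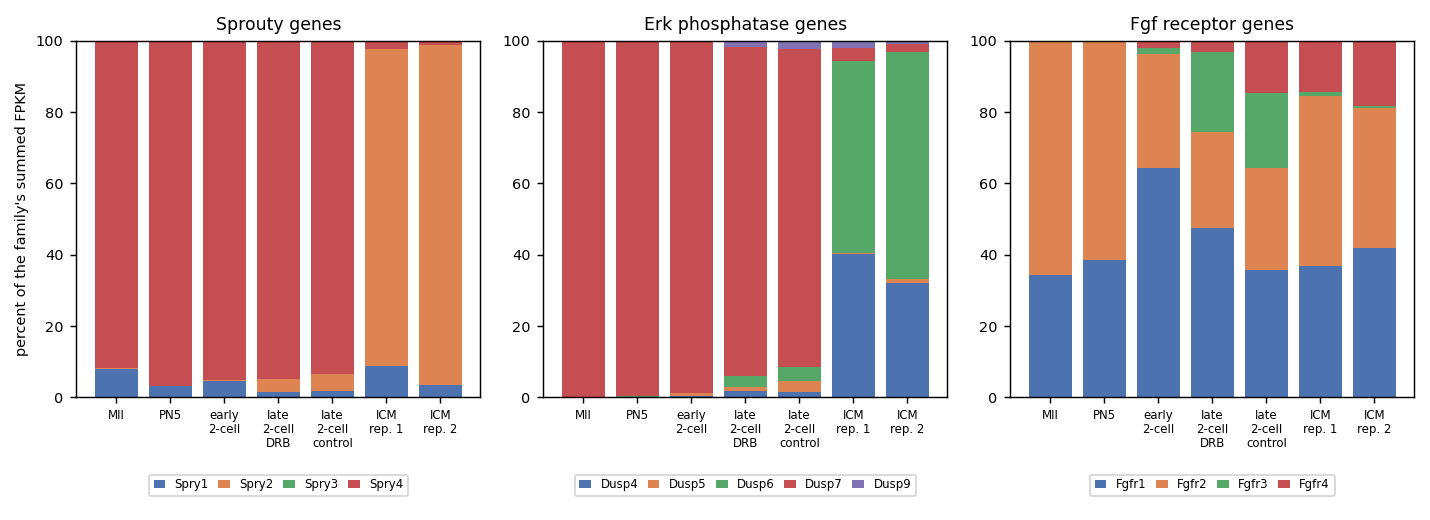
Share of each gene in the summed FPKM of its family, as a percentage, in the 7 libraries (Sprouty genes, Erk phosphatase genes and Fgf receptor genes). Spry4 (91.9% to 96.7%) and Dusp7 (89.2% to 99.8%) fill most of their families in the total RNA libraries, whereas Spry2 (88.9% and 95.2%) and Dusp6 (53.9% and 63.7%) lead in the 2 ICM libraries.

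The leading Erk phosphatase gene also differed: Dusp7 in the total RNA libraries and Dusp6 in the ICM. Unlike Spry2, Dusp6 was not called higher in the ICM than in control embryos. The sum of Dusp4, Dusp5, Dusp6, Dusp7 and Dusp9 was 621 FPKM in DRB and 639 in control embryos, and 29.9 and 25.3 in the ICM. Dusp6 held 0.263 FPKM in MII, 0.399 in PN5 and 0.484 in early 2-cell embryos. It then held 20.2 FPKM in DRB and 24.9 in control late 2-cell embryos, and 16.1 in each ICM library. The 3 early libraries and the 4 later ones do not overlap, a separation whose share over all genes was not calculated. Control embryos were 4.21 above PN5 zygotes. The ICM mean of 16.1 ± 0.0458 FPKM (SD, n = 2) gave -0.60 against control embryos, within the 2-fold limit, and ICM replicate 1 minus replicate 2 gave -0.01. Dusp6 overlaps the long noncoding RNA gene Gm34921 in RefSeq, so its value carries the same doubt about strand.

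Dusp7, a cytoplasmic Erk phosphatase like Dusp6, was the most abundant of the listed negative regulators in each total RNA library except PN5, where Spry4 was. It was at 314 FPKM in MII, 346 in PN5, 510 in early 2-cell, 572 in DRB and 570 in control embryos, and at 1.03 and 0.575 in the ICM. Dusp4, a nuclear phosphatase, was at 0.219 FPKM in MII, 0.225 in PN5, 1.38 in early 2-cell, 11.2 in DRB and 8.76 in control embryos, and 12.0 and 8.17 in the ICM. Dusp5 and Dusp9 were highest at the late 2-cell stage. Dusp5, also nuclear, held 6.25 FPKM in DRB against 21.3 in control embryos, and 0.123 and 0.259 in the ICM. Dusp9 held 11.5 FPKM in DRB and 14.0 in control embryos, and 0.656 and 0.198 in the ICM. Of the 17 listed negative regulators, 16 were measured in the ICM against control embryos; 11 were called lower and 2 higher, with a median of -2.87 against -0.85 for all genes, of which 47.3% were lower and 24.7% higher. The 2 higher ones were Spry2 and Pebp1, the Raf kinase inhibitor protein, which was at 83.9 and 68.9 FPKM in the ICM against 22.1 in DRB and 33.0 in control embryos. Spred1 and Spred2, relatives of the Sprouty proteins, were among the lower ones: Spred1 held 0.842 and 0.323 FPKM in the ICM against 20.1 in DRB and 20.8 in control embryos.

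Etv5 joined the late 2-cell group, and its relative Etv4 did not. Etv5 held 1.24 FPKM in MII, 1.59 in PN5 and 0.889 in early 2-cell embryos. It then stood at 7.00 FPKM in DRB and 16.5 in control late 2-cell embryos, and at 16.2 and 9.44 in the ICM. All 4 later libraries lay above all 3 earlier ones, again without a share over all genes. Control embryos were 2.75 above PN5 zygotes. Etv4 was at 0.310 FPKM in MII, 0.515 in PN5, 0.438 in early 2-cell, 1.22 in DRB and 0.500 in control embryos, and 0.0823 and 0 in the ICM. DRB embryos held its only value above 1 FPKM. Etv1, the third gene of that ETS subfamily, was at 1.45 FPKM in MII, 4.74 in PN5, 0.475 in early 2-cell, 2.93 in DRB and 2.77 in control embryos, and 0.223 and 0.157 in the ICM.

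Of the 12 listed nuclear genes tied to Erk, Etv4 and Etv5 included, 11 were measured in the ICM against control embryos; 2 were called higher (Fos and Myc) and 6 lower (Etv1, Elk1, Elk3, Elk4, Egr1 and Cic), with a median of -1.03 against -0.85 for all genes. Over all measured genes in that comparison, 24.7% were higher and 47.3% lower. Fos, an immediate early gene, held 30.3 and 46.2 FPKM in the ICM against 2.77 in DRB, 3.74 in control and at most 0.431 in earlier libraries. Myc held 9.62 and 14.8 FPKM in the ICM, 6.95 in DRB and 3.97 in control embryos, and at most 0.293 before. Ier2 held 33.7 and 50.1 FPKM in the ICM against 26.9 in DRB and 20.3 in control embryos. Myc encodes a growth-promoting transcription factor, and Ier2 is another immediate early gene. Egr1 and Cic were among the lower genes. Egr1 stood at 3.65 and 6.80 FPKM in the ICM against 16.7 in DRB and 15.1 in control embryos. Cic, the repressor whose octamers were searched above, was at 47.1 FPKM in MII, 47.7 in PN5, 56.3 in early 2-cell, 40.9 in DRB and 40.2 in control embryos, and at 4.49 and 2.81 in the ICM.

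Heparan sulphate genes, needed for Fgf binding, exchanged their leading proteoglycan. Sdc1 held 0.615 and 0.780 FPKM in the ICM against 68.2 in DRB and 97.4 in control embryos, and 34.8 to 73.8 FPKM before. Sdc4 held 185 and 113 FPKM in the ICM against 7.98 in DRB and 5.40 in control embryos, and at most 1.63 before. Of 15 measured genes of this list, 13 were called lower and 2 higher in the ICM than in control embryos, with a median of -1.47 against -0.85 for all genes, of which 47.3% were lower and 24.7% higher. The chain-polymerising enzyme gene Ext1 was at 1.61 ± 0.0292 FPKM in the ICM (SD, n = 2) against 41.0 in control embryos. Ext2, of the same list, went the other way. It held 8.41 and 6.27 FPKM in the ICM against 1.78 in DRB and 1.87 in control embryos.

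**Figure D3:**
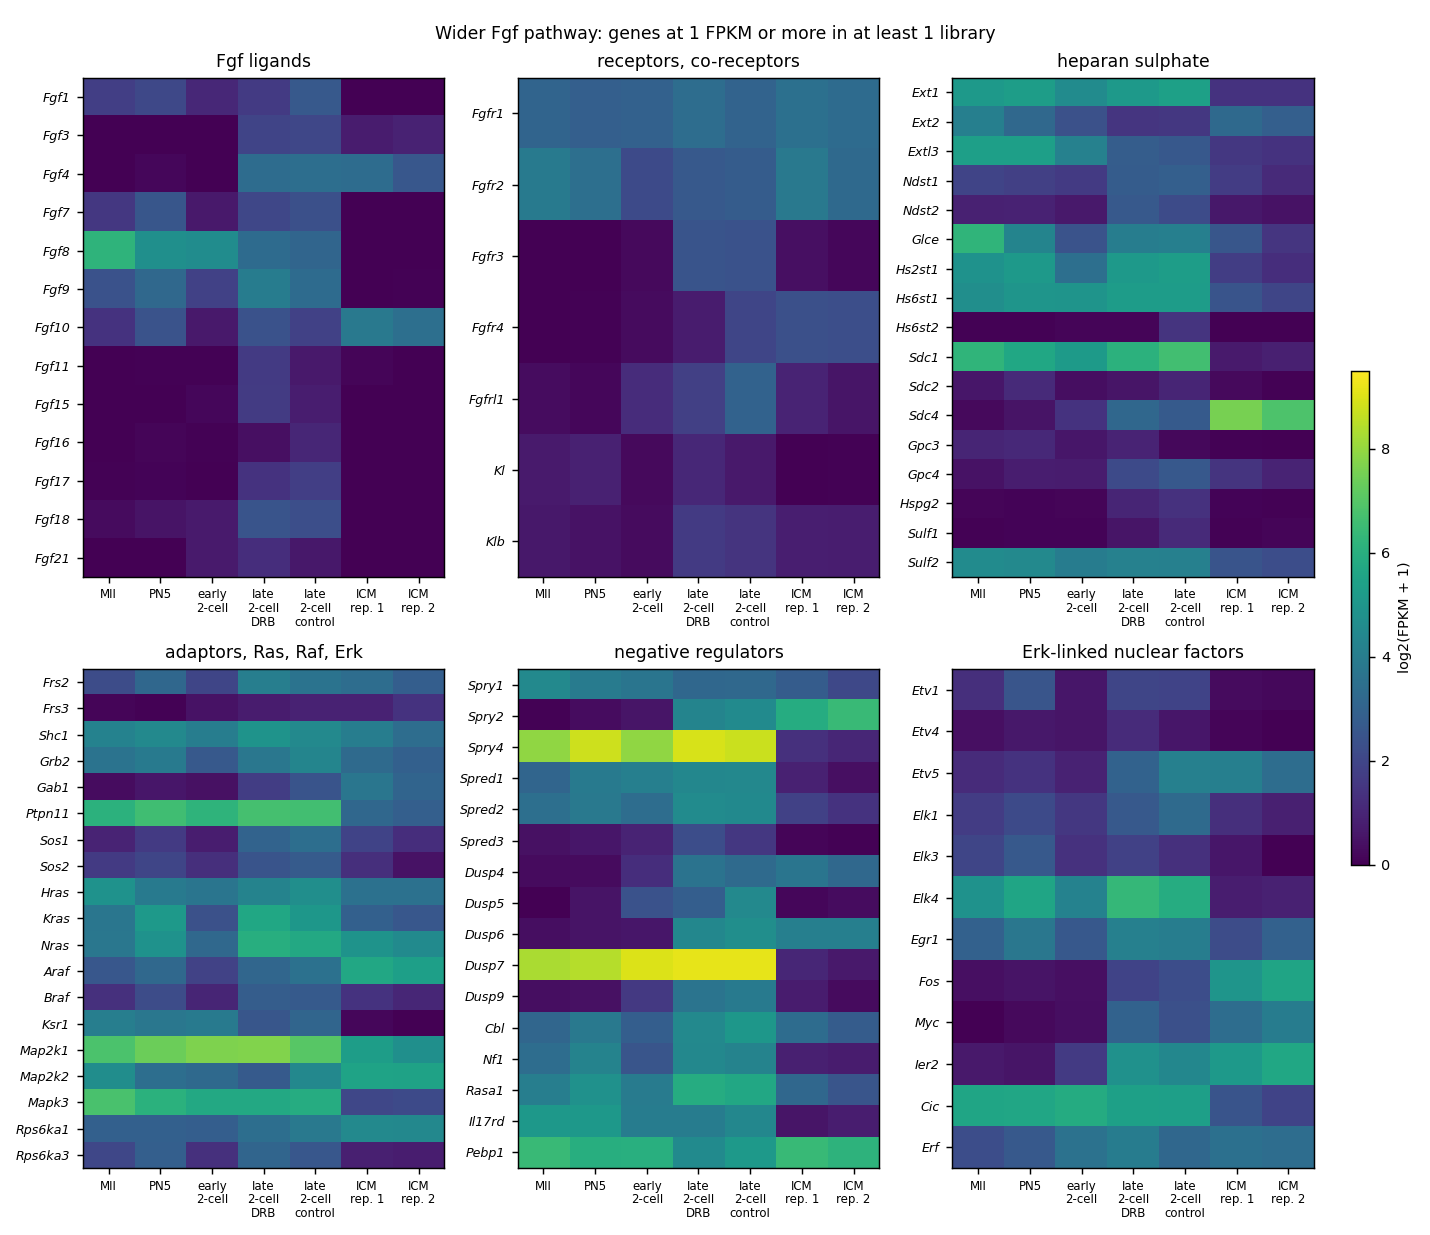
Levels of the wider Fgf pathway as log2(FPKM + 1), 1 row a gene and 1 column a library, for genes that reached 1 FPKM in any library, in 6 lists. The brightest rows are Spry4 and Dusp7 in the total RNA libraries, and Sdc4 stands out in the ICM at 185 and 113 FPKM.

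Step by step, the 9 genes were set against the share of all genes that passed the same limit. PN5 zygotes minus MII oocytes gave 0 calls among 5 measured members, against 8.77% of all measured genes higher and 9.23% lower. Members not counted as measured were below 1 FPKM in the libraries compared. Spry4 came nearest at 0.85. Early 2-cell embryos minus MII gave 1 lower call (Fgfr2) and 0 higher among 5, against 28.8% lower and 3.98% higher over all genes. Early 2-cell embryos minus PN5 gave 2 lower calls (Fgfr2 and Grb2) and 0 higher among 5, against 39.2% lower and 6.75% higher. These calls are near the background, and the early 2-cell library had the lowest FPKM sum.

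The step to the late 2-cell stage held most of the members' higher calls. Control late 2-cell minus early 2-cell embryos gave 5 higher calls (Fgf4, Grb2, Spry2, Dusp6 and Etv5) and 0 lower among 8 measured, against 49.6% higher and 8.62% lower over all genes. Control embryos minus PN5 zygotes, the comparison within 1 table, gave 4 higher calls (Fgf4, Spry2, Dusp6 and Etv5) and 0 lower among 8, against 30.5% higher and 17% lower. DRB embryos minus the same PN5 library gave the same 4 genes higher and 0 lower among 9, against 29.4% higher and 17.7% lower. Both of these share the PN5 library. With 30.5% of all genes past the limit, 4 of 8 does not set the members apart by count. In size, the measured members had a median difference of 1.57, against 0.28 for all genes measured. That median fell in a gap between Grb2 (0.40) and Etv5 (2.75). Spry2 and Dusp6, the largest, each stood 4.21 above PN5 in control embryos, and Fgf4 stood 3.27 above. Spry2, Dusp6 and Fgf4 were below 1 FPKM in PN5 and counted as measured only through the control library. That favours large positive differences and raises the members' median, so the median does not set the members apart either. The place of these genes among all genes was not calculated. The wider lists include the members. Of 16 measured negative regulators, 6 were higher in control embryos than in PN5 zygotes, with Spry2 and Dusp6 among the 6. Of 18 measured adaptor and cascade genes, 3 were higher, and Grb2 was not among them. Both lists had 0 lower.

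The tables' scaling moved the steps that cross tables. Over genes that reached 5 FPKM in both libraries, the median log2 ratio was 0.33 for PN5 minus MII, -0.57 for early 2-cell minus MII, -0.87 for early 2-cell minus PN5, 0.60 for control minus early 2-cell embryos, -0.13 for control minus PN5, -0.18 for DRB minus PN5 and 0.13 for ICM minus control. With that median set to 0, the share of called genes that were higher went to 20.9% from 48.7% for PN5 minus MII, to 39.9% from 12.1% for early 2-cell minus MII, to 51.9% from 14.7% for early 2-cell minus PN5, and to 70.6% from 85.2% for control minus early 2-cell embryos. Under that setting neither Fgfr2 (-0.62) nor Grb2 (-0.50) passed the limit for early 2-cell minus PN5. Fgfr2 minus MII and the 5 late 2-cell calls passed it under that setting and after rescaling to equal sums.

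The DRB comparison asked how the genes stood 12 h after release from a block of transcription that covered the end of the zygote stage. Of the 9 members, all measured, 1 was called lower (Etv5) and 0 higher, against 9.99% of all measured genes lower and 5.57% higher. Of the called genes 35.8% were higher, and 46.9% after rescaling to equal sums. Etv5 held 7.00 FPKM in DRB and 16.5 in control embryos, a difference of -1.13. Its ICM replicates differed by 0.72 in size, so the difference exceeds that spread, though it comes from another protocol.

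The other genes with a late 2-cell onset lay closer to the control, with differences of -0.10 for Fgf4, -0.25 for Spry2 and -0.28 for Dusp6 on the log2(FPKM + 1) scale. Spry4 (0.21), Fgfr1 (0.35), Fgfr2 (-0.10), Grb2 (-0.56) and Etv4 (0.57) were within the limit as well. The wider lists, which include the members, also held genes called lower. These were 1 of 13 measured Fgf family genes (Fgf1) and 2 of 7 receptors (Fgfr4 and Fgfrl1). They were joined by 1 of 15 heparan sulphate genes (Hs6st2) and 1 of 18 adaptor and cascade genes (Map2k2). The last were 1 of 16 negative regulators (Dusp5) and 1 of 12 nuclear genes (Etv5). None of these 6 lists held a gene called higher, and their medians lay between -0.22 and 0.26, against -0.05 for all genes. Of the 8 markers of the 2-cell stage, 4 were called lower, with a median of -1.01; their sum was 185 FPKM in DRB and 352 in control embryos. Of 5 measured cumulus and granulosa markers, 1 (Foxl2, 2.01) was called higher and 0 lower. Of 6 measured primitive endoderm markers, 1 (Pdgfra, 1.05) was called higher and 0 lower, with a median of 0.79. Of 6 measured trophectoderm markers, 1 (Gata3, 1.63) was called higher and 0 lower, with a median of 0.17. No oocyte or epiblast marker was called. Whether these differences play a part in the Etv5 value was not tested.

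**Figure D4:**
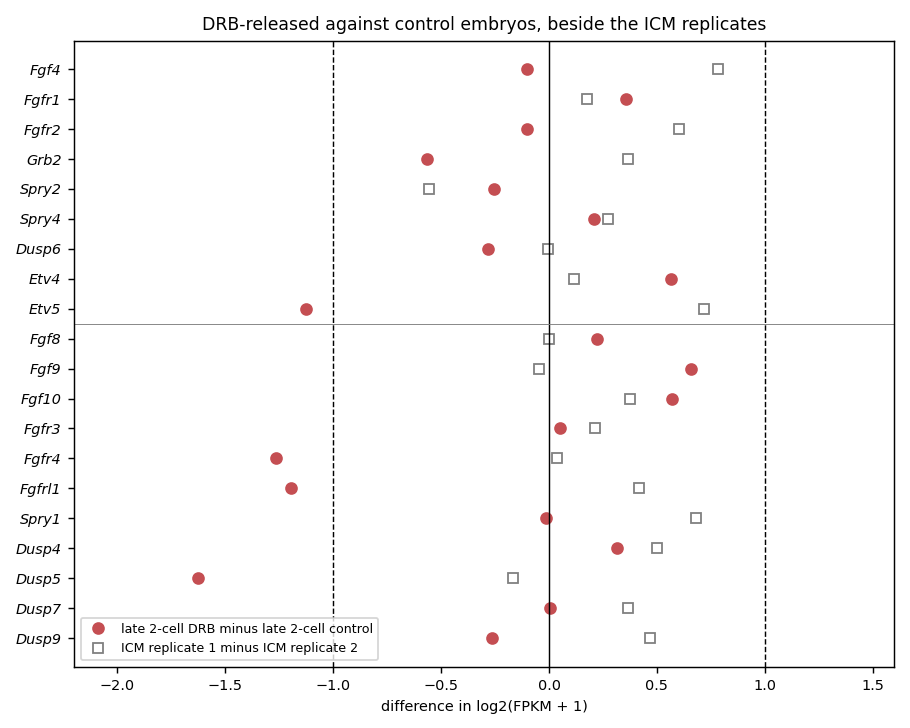
Difference in log2(FPKM + 1) of DRB minus control late 2-cell embryos (red points) and of ICM replicate 1 minus replicate 2 (open squares), for the 9 genes above the line and 11 relatives below it; dashed lines mark -1 and 1. Etv5 (-1.13), Fgfr4 (-1.26), Fgfrl1 (-1.19) and Dusp5 (-1.62) lie beyond the lower line, and no point lies beyond the upper one.

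In the ICM minus control comparison, 1 of 8 measured members was called higher (Spry2) and 2 lower (Spry4 and Grb2), against 24.7% of all measured genes higher and 47.3% lower. Fgf4, Dusp6, Etv5, Fgfr1 and Fgfr2 stayed within the limit. Ordered by level in the ICM, Spry2 (72.0 FPKM) stood above the rest, then came Dusp6 (16.1), Etv5 (12.8), Fgfr2 (10.9), Fgfr1 (9.62), Grb2 (7.72) and Fgf4 (7.08), and last Spry4 (1.25) and Etv4 (0.0823 and 0 in the 2 libraries). From Dusp6 to Fgf4, the 2 replicate values of each gene overlap in range with those of at least 1 neighbour in this order. In control late 2-cell embryos the order was Spry4 (423 FPKM), Dusp6 (24.9), Spry2 (22.2), Grb2 (18.9), Etv5 (16.5), Fgf4 (9.91), Fgfr1 (7.18), Fgfr2 (5.77) and Etv4 (0.500). With 1 library, the order of these neighbours has no error. Spry4 made up 80% of the members' summed FPKM there, and Spry2 43.5% and 60.7% in the ICM libraries.

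Genes with the most similar course were looked for among 10834 genes that reached 5 FPKM, by Pearson's r of log2(FPKM + 1) over the 7 libraries. These points share stages, tables and protocol, and r is given as a description. Nearest to Spry4 were the kinase genes Mark2 (r = 0.9998), Hipk2 (0.9997) and Brsk2 (0.9995); Hipk2 was at 0.754 and 0.650 FPKM in the ICM against 34.1 in DRB and 30.2 in control embryos. Nearest to Dusp6 were Rbmx (0.9992), Irf9 (0.9991) and Jade1 (0.9987). Nearest to Spry2 were Spic (0.9977), Bag3 (0.9976) and Wrap53 (0.9975); Spic held 81.3 and 156 FPKM in the ICM against 23.2 in DRB and 34.4 in control embryos. Etv5 was matched by Dcaf12l1 and Emc1 (0.9973 each) and Ppp1r2 (0.9969). All 3 had smaller values in DRB than in control embryos, which the search itself favours because both libraries entered r. They are therefore no separate evidence for the Etv5 difference. Ppp1r2, for example, held 6.31 FPKM in DRB and 18.8 in control embryos. Fgf4 was closest to Ric8 (0.9955), Mettl13 (0.9945) and Kbtbd2 (0.9941). Fgfr2 was closest to Cdk7 (0.9887), Amn1 (0.9629) and Mcoln1 (0.9583), Grb2 to Bnip2 (0.9832), Fam98b (0.9819) and Iws1 (0.9800), and Fgfr1 to Snhg14 (0.9733), Car4 (0.9681) and Snhg9 (0.9656). Because r compares the shape of a course and not its size, matched genes can differ in level. Snhg9, matched to Fgfr1, was listed at 0 in PN5, early 2-cell and control embryos. It held 9.89 FPKM in DRB embryos and 32.5 and 13.3 in the ICM. Etv4 did not reach 5 FPKM and was not searched.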

How the data were processed

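The authors deposited 1 FPKM value per symbol and library. CASAVA 1.8, TopHat2 2.1.1, Cufflinks 2.1.1 and build mm9 appear in the submitters' processing notes without a role for each; the use of strand and the handling of reads with several matches are not given in these sources. The MII column has a heading that a chromatin sample shares, and it was taken as MII total RNA because its table is attached to that sample. Rows with a repeated symbol were summed, and the 24028 symbols found in all 4 tables were kept. No value column lacked a sample (0 columns). Differences were taken on log2(FPKM + 1) over the whole table, with a filter of 1 FPKM and a limit of 1. Alternatives were a pseudocount of 0.1 FPKM, no filter, a filter of 5 FPKM, 2 rescalings, a limit of 2, the highest row of a repeated symbol, and leaving out an ICM library. With 1 library in all groups but the ICM, no p-value was calculated. Ratios of values below 0.3 FPKM showed steps in the ICM pair (283 of 1972 genes at 2.11, their relative depth), but not between the total RNA libraries (at most 16 of 580 genes). The size rule was tested on simulated data. Promoter windows came from RefSeq GRCm38.p6, which differs from mm9; 6 of 9 members matched, and no expression value was tied to their coordinates. The 9 genes, the wider pathway lists, the marker lists and the motifs were chosen with earlier results of these data known. Some genes of the wider pathway are not reported here, and they were left out of its lists and counts. One listed symbol, Hras, was respelled to match the tables after they were opened. All 9 genes were named, with list genes that reached 10 FPKM, their ligand, receptor, Sprouty, Dusp and Etv relatives at any level, and, for each gene that reached 5 FPKM, the 3 best correlated genes. Hs6st2, Elk1, Elk3 and the cell markers named were chosen after their values were seen. Calculations used Python 3.11.15, numpy 2.4.6 and pandas 2.3.3, and figures matplotlib 3.10.9.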

Additional observations from a re-analysis of the deposited data

How the results depend on the processing

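The 20 called differences of the 9 genes were recomputed 126 times under the alternatives, with 0 reversed in sign and 114 still past the limit. That share overstates stability, because some settings could not remove a call. A pseudocount of 0.1 FPKM only enlarges a difference, and neither filter setting excluded a called member. All calls that were lost were lost under the 2 rescalings or the limit of 2. Counts of called members stayed within 1.5 times in 47 of 56 cases. DRB against control gave 1 call as reported, 2 with a pseudocount of 0.1 FPKM (Etv4 was added at 1.14) and 0 with a limit of 2. Early 2-cell against MII gave 1 call, 2 with a pseudocount of 0.1 FPKM (Grb2 was added), 2 after rescaling to a sum of 1000000 (Spry2 was added) and 0 with a limit of 2. Early 2-cell against PN5 gave 2 calls as deposited and 0 with the median ratio set to 0, after rescaling, or with a limit of 2. ICM against control gave 3 calls, 1 with a limit of 2 (Spry4), and 3 to 4 when 1 ICM library was left out. Counts over all genes moved more. After rescaling, 1859 genes were higher in DRB than in control embryos, against 765 as deposited, and 2106 lower, against 1371. Early 2-cell embryos had 2815 genes higher than PN5 after rescaling, against 732, and 2038 higher than MII, against 425. With the median ratio set to 0, 1730 genes were lower in early 2-cell embryos than in PN5, against 4243, and 1597 lower than in MII, against 3075. PN5 had 345 genes higher than MII with the median set to 0, against 939, and 1870 lower after rescaling, against 989. Control embryos had 3073 genes lower than early 2-cell embryos after rescaling, against 1132, and ICM replicate 1 had 699 higher than replicate 2, against 279. The cause was not tested. No paired analysis was possible because the groups compared share fewer than 2 replicate numbers. Depth limits the values below 1 FPKM, for which no error is known.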
